A study of Mus musculus with 16 samples.

Results

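The genes described here are 10 core members of the expression program of disease-associated microglia, the state that the resident macrophages of the brain take up around pathology. They were chosen by gene symbol: Cst7, Clec7a, Itgax, Lpl, Axl, Lyz2, Cd52, Spp1, Gpnmb and Cd9. All 10 were found among the 24060 genes listed for each library, and 8 of them averaged at least 1 RPKM (a gene's reads divided by its length and by the depth of the library) over the libraries. Itgax and Gpnmb lay below that filter.

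The series profiled cortical tissue of mice aged 8 to 9 months, on a strain labelled C57BL/6; C3, to compare loss of 1 and of both Trem2 alleles in tau pathology. There were 16 libraries, 4 for each of 4 genotypes, and each genotype had 2 females and 2 males. P301S+ TREM2-/- mice (the knockouts) carried the P301S tau transgene and no Trem2 allele, P301S+ TREM2+/- mice (the heterozygotes) the transgene and 1 allele, and P301S+ TREM2+/+ mice the transgene and 2 alleles. Controls (TREM2+/+) carried 2 Trem2 alleles and no transgene. All groups shared strain, age range and tissue. P301S is a mutant form of the microtubule-associated protein tau. No knockout or heterozygote without the transgene was analysed here, so the effect of Trem2 loss outside tau pathology was not measured. The promoter of the transgene, the deleted part of Trem2 and whether a library held 1 mouse or a pool are not given in the sources used here. The p-values therefore measure the spread between these samples.

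The Trem2 protein is a microglial surface receptor for lipids, and it signals through the adapter Tyrobp. In mouse models of amyloid, microglia that gather around deposits lower their homeostatic genes and turn on phagocytic, lysosomal and lipid-handling genes, and the later step of this switch is known to need Trem2. Among the 10 genes, Clec7a (Dectin-1, a receptor for beta-glucans), Itgax (CD11c, an integrin chain) and Axl (a receptor kinase for ligands on dying cells) are receptors. Cst7 (cystatin F, an inhibitor of cysteine cathepsins), Lpl (lipoprotein lipase), Lyz2 (a lysozyme) and Spp1 (osteopontin) are secreted or lysosomal proteins. Cd52, Gpnmb and Cd9 are membrane proteins, a short glycosylated surface peptide, a glycoprotein of the lysosomal stress response and a tetraspanin. Some are also made by other brain cells: neurons make Lpl, oligodendrocytes Cd9 and astrocytes Axl.

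The upstream sequences of 4 of these genes are shown because their values in P301S+ TREM2+/+ mice and in controls did not overlap, as described below; they were picked after the values were seen. Each is the RefSeq window from 250 bases before to 50 after the gene start (build GRCm38.p6), 5′ to 3′ on the gene's strand. Cst7 lies at chr2:150570165-150570464 (plus strand), Clec7a at chr6:129472730-129473029 (minus), Itgax at chr7:128129300-128129599 (plus) and Lyz2 at chr10:117282223-117282522 (minus). Capitals mark GAGGAA, the core of sites of the myeloid factor PU.1, TGANTCA, a loose pattern for the AP-1 site, or TCANGTGA, a loose pattern for sites of the MiT/TFE factors of lysosomal genes. Each was searched on both strands, with N as any base.
Cst7: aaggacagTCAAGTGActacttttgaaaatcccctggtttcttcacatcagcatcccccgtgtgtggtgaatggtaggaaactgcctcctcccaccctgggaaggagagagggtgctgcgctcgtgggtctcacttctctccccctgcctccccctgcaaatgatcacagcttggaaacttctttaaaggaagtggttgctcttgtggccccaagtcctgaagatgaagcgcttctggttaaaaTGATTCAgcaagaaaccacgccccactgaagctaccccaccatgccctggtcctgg
Clec7a: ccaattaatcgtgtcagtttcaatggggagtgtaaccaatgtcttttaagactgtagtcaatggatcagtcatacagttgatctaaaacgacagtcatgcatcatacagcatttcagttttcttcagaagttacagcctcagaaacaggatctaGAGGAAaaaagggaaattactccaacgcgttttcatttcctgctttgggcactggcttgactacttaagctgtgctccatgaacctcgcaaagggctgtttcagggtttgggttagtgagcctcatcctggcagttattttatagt
Itgax: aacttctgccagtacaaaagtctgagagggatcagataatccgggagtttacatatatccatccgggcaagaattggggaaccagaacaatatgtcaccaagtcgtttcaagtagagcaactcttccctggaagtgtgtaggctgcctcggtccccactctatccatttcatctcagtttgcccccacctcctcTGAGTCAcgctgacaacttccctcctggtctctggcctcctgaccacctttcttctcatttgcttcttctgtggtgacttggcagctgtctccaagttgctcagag
Lyz2: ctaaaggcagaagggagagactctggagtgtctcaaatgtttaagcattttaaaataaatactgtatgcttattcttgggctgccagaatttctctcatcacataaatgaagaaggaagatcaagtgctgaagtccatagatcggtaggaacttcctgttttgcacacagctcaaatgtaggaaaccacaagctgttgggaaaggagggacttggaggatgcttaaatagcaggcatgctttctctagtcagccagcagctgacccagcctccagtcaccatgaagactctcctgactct
In Clec7a the marked letters, from base 155, are GAGGAA. In Itgax they are an AP-1 match from base 195. Cst7 held TCAAGTGA from base 9, a match of the MiT/TFE pattern, and TGATTCA from base 245, a match of the AP-1 pattern. The marked stretches did not overlap. Lyz2 held none of the 3. Of the 8 members with an entry, 3 held GAGGAA (Clec7a, Axl and Spp1), 3 held TGANTCA (Cst7, Itgax and Gpnmb) and 1 held TCANGTGA. Over all 32851 windows the shares were 28.3%, 7.8% and 4.2%. These shares are per window, while a member with several windows, such as Spp1, was counted if any of them matched. Lpl and Cd52 have no window here. In the Axl and Gpnmb windows, unlike the others, bases checked after the gene start were not found in a GENCODE transcript of the gene. Their matches are less certain to lie at the gene's start. A match describes the letters and was not measured as a bound site.

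Depth was 2.55 to 14.47 M reads per library (M, 1000000). By genotype its mean and SD (n = 4) were 5.94 ± 2.68 M for knockouts, 9.29 ± 1.96 M for heterozygotes, 8.01 ± 3.26 M for P301S+ TREM2+/+ mice and 8.27 ± 4.24 M for controls. Control replicate 3, a female, stood apart: its 50 most abundant genes took 18.6% of reads, against 13% to 15% in the other libraries, and the lysosomal gene Psap had 10.5 RPKM in it but 640 RPKM or more elsewhere. An earlier look at these data also set apart both P301S+ TREM2+/+ females (replicates 1 and 2). Values without control replicate 3, or without these 3 libraries, are given with the comparisons below where they differ by more than 1.5 times or turn the direction. For the tested members these refits kept sex as a term. Without both P301S+ TREM2+/+ females, that term could only be estimated from the other genotypes. The values of Itgax and Gpnmb without these libraries are plain differences of means, with no sex term. Replicate numbers were given in the order of the deposited samples and only name a library.

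Trem2 (chromosome 17, 48346401 to 48354147, GRCm38) followed the labels. It was at 1.44, 1.71, 1.46 and 3.75 RPKM in knockouts, 4.50, 8.37, 25.2 and 13.6 in heterozygous mice, 34, 30.1, 29.6 and 14.3 in P301S+ TREM2+/+ mice, and 10.01, 12.1, 20.2 and 7.35 in controls (in every such list, replicates 1 to 4). Every knockout lay below every other library, and of the heterozygotes only male replicate 3 lay within the range of the P301S+ TREM2+/+ mice. Trem2 was lower in knockouts than in P301S+ TREM2+/+ mice with a fitted difference of -3.17 on the log2 scale (SE 0.43, adjusted p = 0.0400 by limma). It was the only 1 of 12015 genes past the threshold of 0.05, and that call ended without any one of 11 libraries, with adjusted p from 0.0596 to 0.305.

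Clec7a, on chromosome 6 (129461591 to 129472779, minus strand), was low in knockouts and controls and high in P301S+ TREM2+/+ mice. It was at 0.161, 0.172, 0.342 and 1.24 RPKM in knockouts, 0.0419, 1.04, 10.5 and 7.39 in heterozygous mice, 5.24, 2.16, 2.08 and 1.98 in P301S+ TREM2+/+ mice, and 0.118, 0.212, 0.168 and 0.0739 in controls. The 4 knockouts lay below all P301S+ TREM2+/+ mice, and the heterozygotes split, with the males (replicates 3 and 4 of each tau genotype) above every other library and the females below every P301S+ TREM2+/+ mouse. The limma log2 difference, on the log2(RPKM + 1) scale, was -1.37 for knockouts minus P301S+ TREM2+/+ mice (SE 0.53, adjusted p = 0.435). It was 0.05 for heterozygotes minus P301S+ TREM2+/+ mice (SE 0.53, adjusted p = 1) and 1.68 for P301S+ TREM2+/+ mice minus controls (SE 0.53, adjusted p = 0.269). Knockouts had 29 Clec7a reads in all and controls 12, so differences between these groups rest on few reads. GENCODE annotates the gene as a polymorphic pseudogene.

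Itgax (chromosome 7, 128129547 to 128150657, plus strand) was detected mainly in tau mice with a Trem2 allele. It was at 0, 0, 0.249 and 0.331 RPKM in knockouts, 0, 0.179, 1.51 and 1.36 in heterozygous mice, 3.15, 1.83, 0.979 and 0.451 in P301S+ TREM2+/+ mice, and 0.0335, 0.137, 0.142 and 0.126 in controls. The P301S+ TREM2+/+ mice lay above all knockouts and all controls, while the heterozygotes overlapped each of these groups. At 3 reads, the limit that a count of 0 allows, the value would be 0.136 and 0.292 RPKM in knockout replicates 1 and 2 and 0.0711 RPKM in heterozygote replicate 1. These limits cover counting error only. On the log2(RPKM + 1) scale Itgax differed by -1.09 between knockouts and P301S+ TREM2+/+ mice (two-sided exact permutation p = 0.0286, unadjusted, the smallest that 4 against 4 libraries can give). P301S+ TREM2+/+ mice exceeded controls by 1.12 (exact permutation p = 0.0286), and heterozygotes minus P301S+ TREM2+/+ mice gave -0.57 (exact permutation p = 0.257). Without control replicate 3 and the P301S+ TREM2+/+ females, these 3 differences were -0.58, 0.63 and -0.06.

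Axl, on chromosome 7 (25757273 to 25788705, minus strand), had overlapping values in all 4 genotypes. It was at 3.27, 4.62, 4.25 and 4.96 RPKM in knockouts, 4.75, 5.88, 8.37 and 7.61 in heterozygous mice, 8.88, 7.60, 7.17 and 4.78 in P301S+ TREM2+/+ mice, and 4.75, 4.20, 15.8 and 3.97 in controls. Of the knockouts, 3 of 4 lay below every P301S+ TREM2+/+ mouse, and the control range was set by replicate 3. Knockouts minus P301S+ TREM2+/+ mice gave a difference (log2) of -0.60 (SE 0.33, limma adjusted p = 0.556). P301S+ TREM2+/+ mice minus controls gave 0.17 (SE 0.33, adjusted p = 0.83), and 0.60 without control replicate 3 (adjusted p = 0.152). The controls other than replicate 3 averaged 4.31 ± 0.399 RPKM (SD, n = 3), near the 4.28 ± 0.727 RPKM of the knockouts (SD, n = 4).

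Among the secreted and lysosomal proteins, Cst7 had the largest P301S difference of the 8 tested members. Cst7 (chromosome 2, 150570415 to 150578944, plus strand) was at 0.186, 0.397, 2.15 and 9.47 RPKM in knockouts, 0.387, 2.72, 18.3 and 14.4 in heterozygous mice, 16.9, 10.9, 7.59 and 3.44 in P301S+ TREM2+/+ mice, and 0.684, 0.210, 0.194 and 0 in controls. The controls held 9 reads in all, every P301S+ TREM2+/+ mouse lay above them, and knockout replicate 4 reached into the P301S+ TREM2+/+ range. A count of 0 in control replicate 4 allows up to 0.512 RPKM. P301S+ TREM2+/+ mice minus controls gave a difference (log2) of 2.93 (SE 0.71, limma adjusted p = 0.265). Knockouts minus P301S+ TREM2+/+ mice gave -1.81 (SE 0.71, adjusted p = 0.439), and heterozygotes minus P301S+ TREM2+/+ mice -0.60 (SE 0.71, adjusted p = 1).

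Lyz2 (chromosome 10, 117277331 to 117282321, minus strand) was also higher in P301S+ TREM2+/+ mice than in controls, while knockouts averaged 6.28 ± 3.9 RPKM against 2.35 ± 1.58 RPKM in controls (SD, n = 4 each). It was at 2.77, 3.71, 7.27 and 11.4 RPKM in knockouts, 3.07, 7.71, 27.6 and 24.1 in heterozygous mice, 14.4, 17.7, 18.8 and 7.32 in P301S+ TREM2+/+ mice, and 4.21, 2.29, 0.362 and 2.55 in controls. All P301S+ TREM2+/+ mice exceeded all controls, and 3 of 4 knockouts lay below every P301S+ TREM2+/+ mouse, the third of them by a narrow margin. The log2 difference was -1.18 for knockouts minus P301S+ TREM2+/+ mice (SE 0.47, limma adjusted p = 0.440), -0.23 for heterozygotes minus P301S+ TREM2+/+ mice (adjusted p = 1) and 2.29 for P301S+ TREM2+/+ mice minus controls (SE 0.47, adjusted p = 0.262).

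Lpl (chromosome 8, 68880491 to 68907448, plus strand) had the most reads of the 10 genes, 11287 in all, and overlapping genotypes. It was at 10.4, 20.7, 20.9 and 29.6 RPKM in knockouts, 16.9, 21.5, 20.4 and 27.0 in heterozygous mice, 35.7, 24.1, 19.7 and 33.3 in P301S+ TREM2+/+ mice, and 15.2, 19.1, 5.0 and 21.4 in controls. No pair of genotypes separated, and control replicate 3 was the lowest library. The log2 difference was -0.49 for knockouts minus P301S+ TREM2+/+ mice (SE 0.35, limma adjusted p = 0.655) and 0.97 for P301S+ TREM2+/+ mice minus controls (SE 0.35, adjusted p = 0.289). The second value was 0.59 without control replicate 3 (adjusted p = 0.239).

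Spp1 (chromosome 5, 104435118 to 104441050, plus strand) followed no order of Trem2 alleles. It was at 1.88, 4.73, 5.71 and 3.22 RPKM in knockouts, 1.96, 3.36, 7.05 and 16.7 in heterozygous mice, 3.9, 1.24, 10.2 and 3.57 in P301S+ TREM2+/+ mice, and 4.64, 2.42, 1.84 and 2.64 in controls. All groups overlapped, and heterozygote replicate 4 was highest. Knockouts minus P301S+ TREM2+/+ mice gave -0.07 on the log2 scale (SE 0.40, limma adjusted p = 0.972), and heterozygotes minus P301S+ TREM2+/+ mice gave 0.43 (SE 0.40, adjusted p = 1).

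Of the membrane proteins, Cd52 (chromosome 4, 134082448 to 134095082, minus strand) separated the groups as Clec7a did. It was at 4.36, 4.67, 7.53 and 9.13 RPKM in knockouts, 3.41, 9.02, 29.7 and 24.4 in heterozygous mice, 36.0, 16.8, 24.3 and 10.5 in P301S+ TREM2+/+ mice, and 4.56, 4.81, 6.84 and 4.35 in controls. Every P301S+ TREM2+/+ mouse lay above every knockout and every control, and the heterozygous males lay within their range with the females below it. The log2 difference was -1.55 for knockouts minus P301S+ TREM2+/+ mice (SE 0.48, limma adjusted p = 0.426), -0.62 for heterozygotes minus P301S+ TREM2+/+ mice (SE 0.48, adjusted p = 1) and 1.79 for P301S+ TREM2+/+ mice minus controls (SE 0.48, adjusted p = 0.265). Cd52 overlaps Crybg2 on the opposite strand, and reads of the pair cannot be told apart without the strand setting of the counting (not given in the sources used).

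Gpnmb (chromosome 6, 49036546 to 49070929, plus strand) was the lowest of the 10 in reads, with 209 over all libraries. It was at 0.193, 0.413, 0.176 and 0.312 RPKM in knockouts, 0.0754, 0.299, 0.616 and 0.548 in heterozygous mice, 0.720, 0.863, 0.467 and 0.748 in P301S+ TREM2+/+ mice, and 0.249, 0.145, 1.31 and 0.310 in controls. Knockouts lay below all P301S+ TREM2+/+ mice, and control replicate 3 was the highest library of all. The gap between these groups, from 4 reads in knockout replicate 2 to 9 reads in P301S+ TREM2+/+ replicate 3, lies within counting error. Knockouts minus P301S+ TREM2+/+ mice gave -0.41 on the log2(RPKM + 1) scale (two-sided exact permutation p = 0.0286, unadjusted). P301S+ TREM2+/+ mice minus controls gave 0.23 (exact permutation p = 0.400), and 0.46 without control replicate 3 (exact permutation p = 0.0571).

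Cd9 (chromosome 6, 125460266 to 125494791, minus strand) was highest in heterozygous males and, unlike the members above, averaged more in knockouts than in P301S+ TREM2+/+ mice. It was at 21.9, 18.4, 21.3 and 23.7 RPKM in knockouts, 13, 17.8, 40.8 and 32.8 in heterozygous mice, 7.72, 7.33, 19.7 and 30.6 in P301S+ TREM2+/+ mice, and 17.8, 15.8, 2.56 and 15.3 in controls. All 4 knockouts exceeded all controls, and the P301S+ TREM2+/+ females were lower than every library but control replicate 3. Knockouts minus P301S+ TREM2+/+ mice gave a difference (log2) of 0.59 (SE 0.39, limma adjusted p = 0.623), the only positive value among the 8 tested members, and 0.06 without control replicate 3 and the P301S+ TREM2+/+ females. Cd9 overlaps Gm28809 and Gm26728 on the opposite strand, as Cd52 does Crybg2. Spp1 overlaps Gm42793 on its own strand, where no strand setting would separate the reads.

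**Figure D1:**
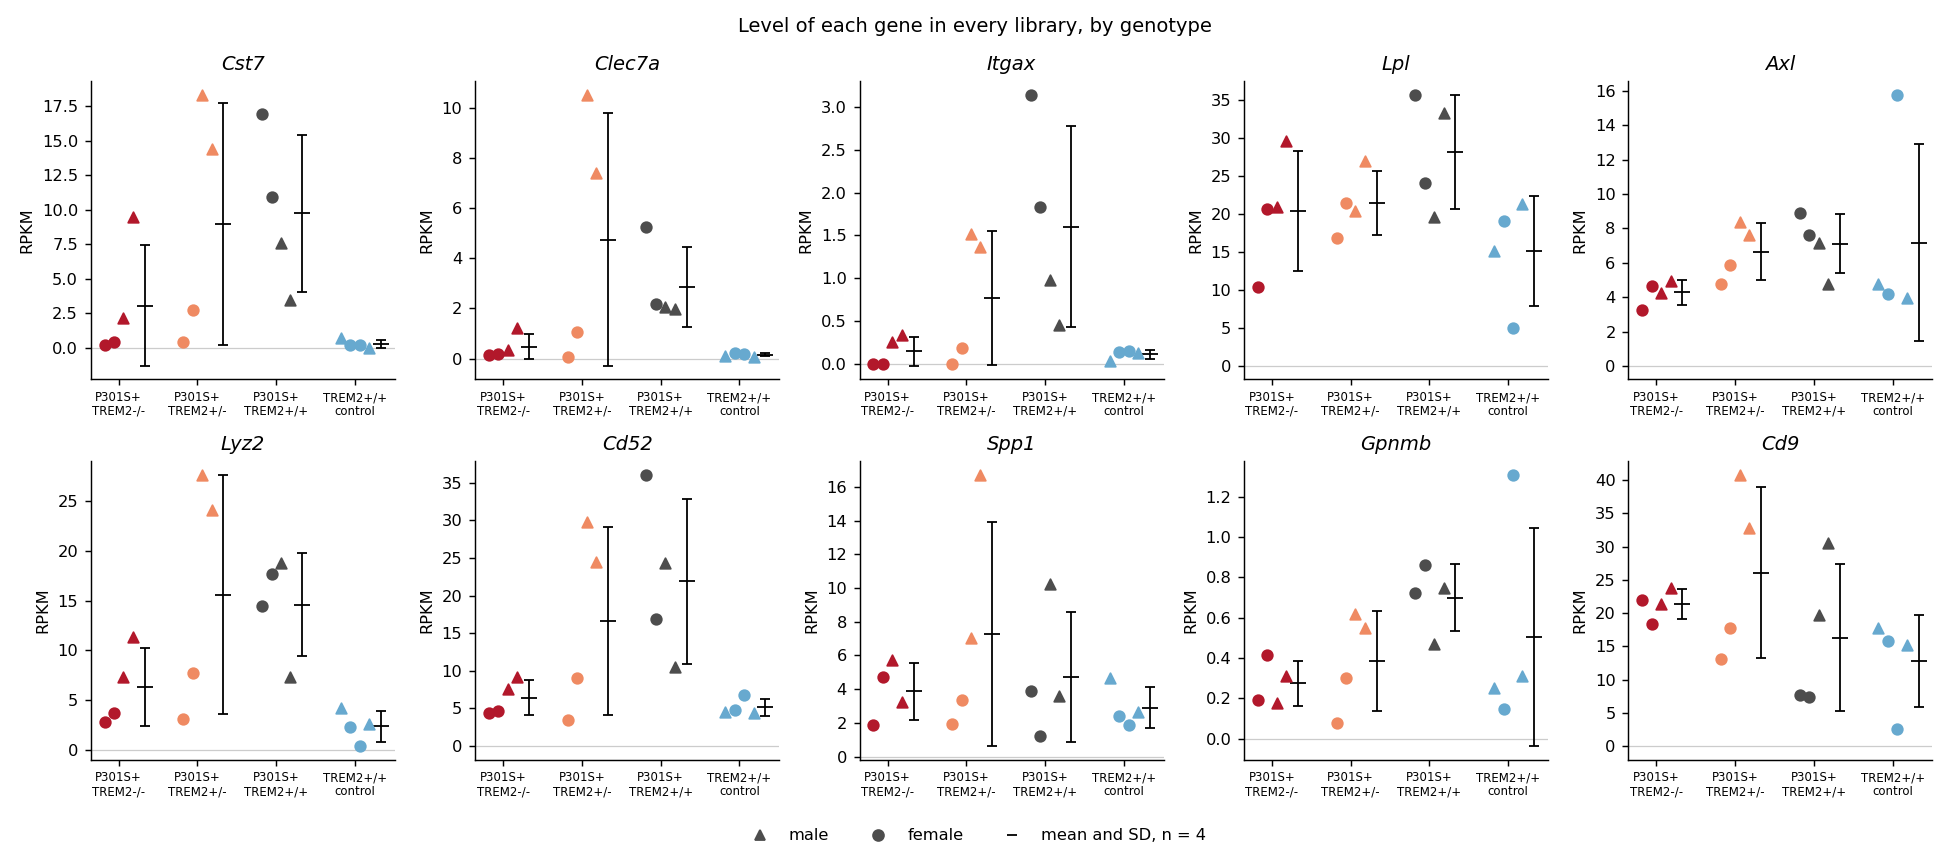
RPKM (linear axes) of each of the 10 genes in all 16 libraries, with genotypes from left to right and sex by symbol; bars give the mean and SD of 4 libraries. In Cst7, Clec7a, Itgax, Lyz2 and Cd52 every P301S+ TREM2+/+ library lies above every control, and the heterozygous males (triangles) lie above the heterozygous females in all genes but Lpl.

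Ordered by mean level, P301S+ TREM2+/+ mice were highest for 5 members (Cst7, Itgax, Lpl, Cd52 and Gpnmb), heterozygotes for 4 (Clec7a, Lyz2, Spp1 and Cd9) and controls for Axl alone, through replicate 3. Controls were lowest for 8 members, and knockouts for Axl and Gpnmb. In these orders only 1 of 30 pairs of neighbouring genotypes did not overlap in range, P301S+ TREM2+/+ mice over knockouts for Clec7a. This count leaves out genotypes that were not neighbours, where other members separated, as given for each gene above. It was not made over all genes, so no share stands beside it. In bulk tissue, fewer cells of a type and less RNA per cell cannot be told apart.

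Counted over the 8 tested members, none passed limma's test in complete loss (knockouts minus P301S+ TREM2+/+ mice), where 1 of 12015 genes (0.00832%) did. None passed in partial loss, in the P301S effect, in complete against partial loss, in either comparison of heterozygotes or knockouts with controls, or in the departure of heterozygotes from the midpoint of knockouts and P301S+ TREM2+/+ mice; over all genes the share called was 0% in each of these 6. At an unadjusted p under 0.05, all genes gave 1190 in complete loss, 324 in partial loss and 1657 in the P301S effect. limma-voom on the recovered reads called 0 genes in each of the 3, and array weights called 690, 0 and 197. The other 4 comparisons had 411 genes (complete against partial loss), 175 (the midpoint), 1153 (heterozygotes minus controls) and 1167 (knockouts minus controls) at that level, and limma-voom called 0, 0, 1 and 1. With these weights (0.0448 for control replicate 3) Axl and Cd52 passed in complete loss (limma adjusted p = 0.0426 each) and Cst7, Lyz2 and Cd52 in the P301S effect (adjusted p from 0.0406 to 0.0449). The member calls depended on how the weights were estimated: with weights estimated gene by gene, no member passed in complete loss and at most 1, Lyz2, in the P301S effect.

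In complete loss 4 of 8 members were lower at an unadjusted p under 0.05 (Cst7, Clec7a, Lyz2 and Cd52), against 4.47% of all genes. Of the 8, 7 had a negative difference, with a median of -0.89, against -0.02 over all genes. The knockouts did not overlap P301S+ TREM2+/+ mice and were lower for Clec7a and Cd52, 2 of 8, against 4.76% of all genes, and among members below the filter also for Itgax and Gpnmb. The share was taken over tested genes only, so none stands beside Itgax and Gpnmb, and the Gpnmb gap lies within counting error. Without control replicate 3 and the P301S+ TREM2+/+ females, the differences of Cst7, Clec7a, Lyz2 and Cd52 were -0.22, -0.48, -0.28 and -0.73, those of Axl and Lpl were -0.26 and -0.22, and that of Spp1 was -0.17. This refit set all 4 knockouts against the 2 P301S+ TREM2+/+ males, with a sex term estimated from the other genotypes. The values are therefore not plain differences between those libraries.

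In partial loss no member was lower and none higher at an unadjusted p under 0.05, against 1.27% and 1.42% of all genes. The median of the 8 differences was -0.15, 5 were negative, and Cd9 was at 0.74 (SE 0.39, limma adjusted p = 1). Without control replicate 3 and the P301S+ TREM2+/+ females, 4 of the 5 negative differences turned positive in the refit, to 0.98 for Cst7, 0.67 for Lyz2, 0.20 for Cd52 and 0.27 for Axl. Lpl was then at -0.08, Clec7a at 0.93 and Cd9 at 0.22. In that refit the P301S+ TREM2+/+ males were adjusted by a sex term estimated from the other genotypes. These values depend on that term and are not plain differences between the libraries left. Complete against partial loss gave 1 of 8 members lower at an unadjusted p under 0.05 (Clec7a, at -1.41), against 1.48% of all genes. No member had knockouts below all heterozygotes without overlap, against 2.41% of all genes, although all 8 differences were negative with a median of -0.73. The heterozygotes departed from the midpoint of knockouts and P301S+ TREM2+/+ mice by -0.11 (Lpl) to 0.73 (Clec7a), with 7 of 8 above it, and without the 3 libraries by 0.0253 (Lpl) to 1.17 (Clec7a).

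The P301S effect gave 5 of 8 members higher at an unadjusted p under 0.05 (Cst7, Clec7a, Lpl, Lyz2 and Cd52), against 9.12% of all genes. The P301S+ TREM2+/+ mice exceeded controls without overlap for Cst7, Clec7a, Lyz2 and Cd52, 4 of 8, against 3.55% of all genes, and below the filter for Itgax, where no share was counted. All 8 differences were positive, with a median of 1.33, against 0.06 over all genes. Without control replicate 3 and the P301S+ TREM2+/+ females, Cst7, Clec7a, Lyz2, Cd52 and Lpl were at 1.64, 1.01, 1.25, 1.27 and 0.34, and Cd9, at 0.34 with all libraries, was at -0.09 without control replicate 3 alone. Gpnmb was then at 0.46 and Axl at 0.60, and without the 3 libraries at 0.38 and 0.28. This comparison and the loss comparisons share the P301S+ TREM2+/+ mice, so that a high value there makes the P301S effect more positive and complete loss more negative at once.

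Set against the same controls, heterozygotes had 5 of 8 members higher at an unadjusted p under 0.05 (Cst7, Clec7a, Lyz2, Cd52 and Cd9), where 6.39% of all genes were, and knockouts had 2 (Lyz2 and Cd9), where 4.83% were. For heterozygotes and knockouts minus controls, in that order, Cst7 gave 2.33 and 1.12, Clec7a 1.73 and 0.32, Lyz2 2.06 and 1.11, Cd52 1.17 and 0.24, and Cd9 1.09 and 0.94 (limma adjusted p from 0.450 to 0.785). Without control replicate 3, Cd9 was at 0.66 in heterozygotes and 0.51 in knockouts minus controls, Lpl at 0.23 in heterozygotes and 0.09 in knockouts, against 0.62 and 0.48 with it, and Cd52 at 0.46 in knockouts. Axl was at 0.52 in heterozygotes and -0.0031 in knockouts, against 0.09 and -0.43 with it. Without the 3 libraries, Clec7a in knockouts minus controls was at 0.53. The knockout means of Clec7a and Cd52 were 0.478 ± 0.513 and 6.42 ± 2.30 RPKM, against 0.143 ± 0.0600 and 5.14 ± 1.15 RPKM in controls (SD, n = 4 each), with overlapping ranges.

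**Figure D2:**
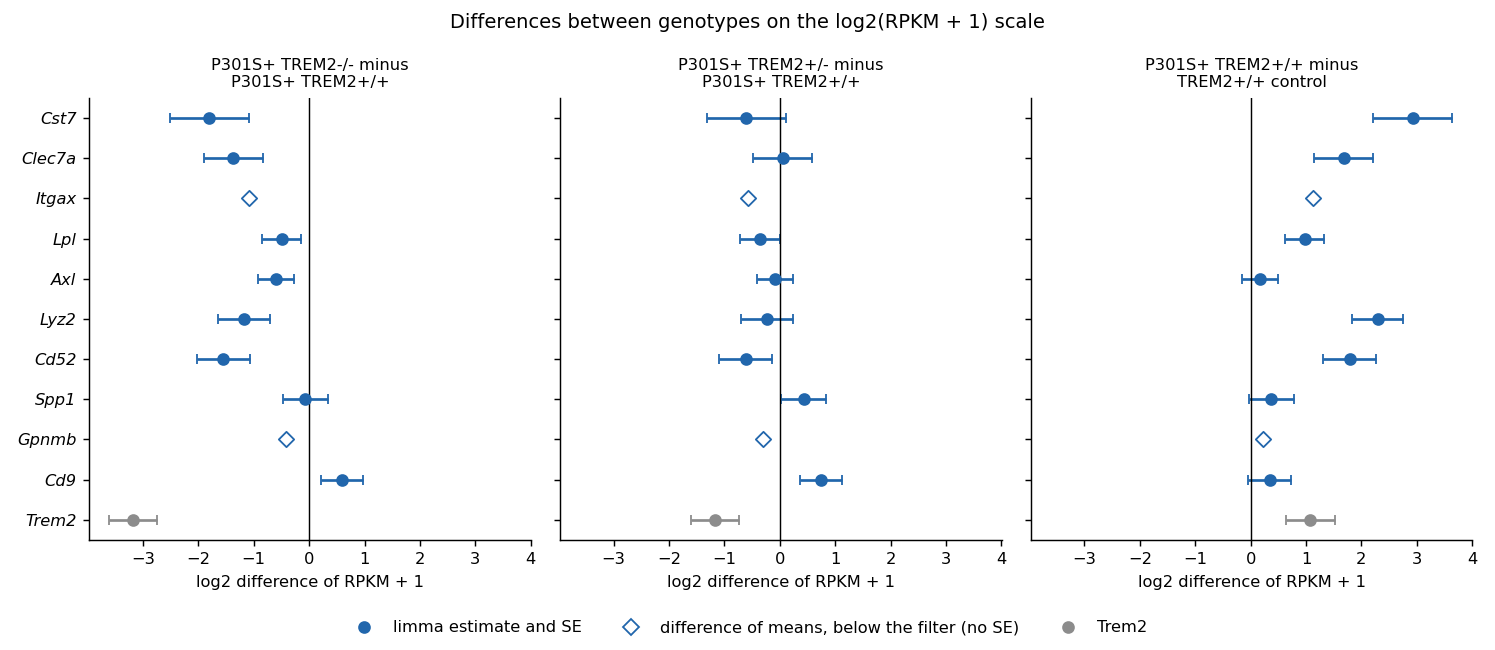
Differences on the log2(RPKM + 1) scale for the 10 genes and Trem2; circles and bars give the limma estimate and its SE, and open diamonds the difference of means for the 2 genes below the filter. Cst7, Clec7a, Lyz2 and Cd52 lie at -1.18 or lower in complete loss and at 1.68 or higher in the P301S effect, and between -0.62 and 0.05 in partial loss.

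Within the heterozygotes the members split by sex. Heterozygous males exceeded heterozygous females without overlap for 9 of 10 members, all but Lpl, and for 31.7% of all tested genes. The mean of the males against that of the females was 16.4 against 1.55 RPKM for Cst7, 8.97 against 0.542 for Clec7a, 1.44 against 0.0896 for Itgax, 25.8 against 5.39 for Lyz2 and 27.1 against 6.22 for Cd52 (n = 2 each). In knockouts the males exceeded the females for 6 of 10 members (18.3% of tested genes), among them Cst7 at 5.81 against 0.291 RPKM. In P301S+ TREM2+/+ mice the females exceeded the males for 4, Cst7, Clec7a, Itgax and Axl (24.8% of tested genes), and in controls the males exceeded the females for 2, Lyz2 and Spp1 (27.1%).

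Partial loss pointed in opposite directions in the sexes for 5 tested members. For Cst7, heterozygotes minus P301S+ TREM2+/+ mice gave a difference (log2) of 1.48 in males and -2.69 in females. For Clec7a it was 1.70 in males and -1.61 in females, for Lyz2 1.1 in males and -1.51 in females, for Cd52 0.71 in males and -1.95 in females, and for Axl 0.39 in males and -0.55 in females. In these 5 of 8 tested members, and in Itgax below the filter, both heterozygous males lay above both P301S+ TREM2+/+ males and both heterozygous females below both P301S+ TREM2+/+ females, as for 6.31% of all genes. This pattern was noticed in these data and then counted. The male minus female difference of partial loss was 3.31 for Clec7a (SE 0.54, limma adjusted p = 0.462), 4.17 for Cst7 (SE 0.81, adjusted p = 0.537), 2.66 for Cd52 (SE 0.64, adjusted p = 0.537) and 2.57 for Lyz2 (SE 0.71, adjusted p = 0.623). Clec7a had the smallest unadjusted p of all 12015 genes in that test (5.98e-05), Cst7 had rank 5, Cd52 rank 29 and Lyz2 rank 70, while no gene passed after adjustment and 778 had an unadjusted p under 0.05. In complete loss Cst7 was at -0.11 in males and -3.51 in females, a difference of 3.40 (SE 0.81, adjusted p = 0.393). Each of these values rests on 2 against 2 libraries, and a batch that followed sex or library order, which the labels do not give, cannot be told apart from it.

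Trem2 itself, in the same contrast, was at -0.15 in males and -2.20 in females, and the heterozygous males held 25.2 and 13.6 RPKM of it against 4.50 and 8.37 RPKM in the heterozygous females. The microglial genes described next split the heterozygotes in the same way.

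**Figure D3:**
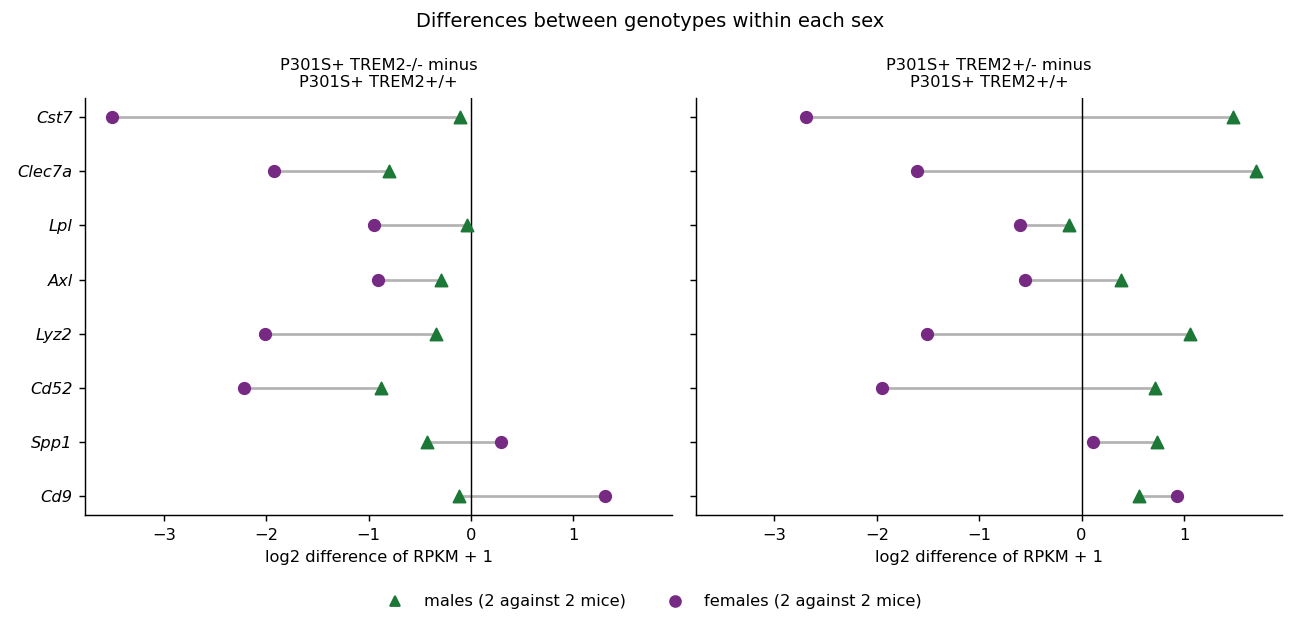
Differences on the log2(RPKM + 1) scale for complete loss and partial loss of the 8 tested genes, in males (triangles) and in females (circles), 2 against 2 mice each. In partial loss Cst7, Clec7a, Axl, Lyz2 and Cd52 lie above 0 in males and below 0 in females; in complete loss Cst7 is at -0.11 in males and -3.51 in females.

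A reference list of 12 genes that microglia express in every state (such as Aif1, Csf1r and Ptprc) ran in parallel with the members in some libraries and not in others. Its summed level was 101, 116, 135 and 177 RPKM in knockouts, 89.2, 134, 272 and 208 in heterozygous mice, 172, 168, 161 and 140 in P301S+ TREM2+/+ mice, and 102, 108, 143 and 97.3 in controls. The heterozygous males were highest, as for Clec7a, and heterozygote replicate 1 was lowest, as for Clec7a, Cd52 and Gpnmb. Control replicate 3 was the highest control for the reference, while its summed members, 34.2 RPKM, were the lowest of all libraries. That sum leans on Lpl and Cd9, the members with the highest mean levels, which other brain cells also make. This library was the lowest of all for both and for Lyz2, and the lowest control for Spp1. It was the highest control for Itgax, Axl, Cd52 and Gpnmb, and lay between the other controls for Cst7 and Clec7a. Its low sum therefore does not describe the members as a set. Knockout replicate 4 exceeded every P301S+ TREM2+/+ mouse for the reference, but its summed members, 93.4 RPKM, exceeded only the lowest of them. The reference holds Irf8, named below among the genes most like the members, so it is not independent of them. With the mean of the 11 tested reference genes as a covariate, the differences of Cst7, Clec7a, Lyz2 and Cd52 in complete loss were -1.16, -0.86, -0.84 and -1.11. In the P301S effect they were 1.81, 0.80, 1.71 and 1.02, smaller than without the covariate in all 8 cases, and Axl turned to -0.18. Taken as a log2 difference from the reference mean in the same library, Cd52 stood at 0.17 ± 0.25 in knockouts, 0.85 ± 0.71 in heterozygotes, 1.49 ± 0.62 in P301S+ TREM2+/+ mice and 0.09 ± 0.17 in the control group (n = 4 each, SD). All knockouts, from -0.13 to 0.40, lay below all P301S+ TREM2+/+ mice, from 0.78 to 2.12. For Clec7a the same quantity was -2.16 ± 0.25 in knockouts, -1.0 ± 1.1 in heterozygotes, -1.02 ± 0.39 in P301S+ TREM2+/+ mice and -2.32 ± 0.09 in the control group (n = 4 each, SD), again with every knockout below every P301S+ TREM2+/+ mouse. Itgax values did not overlap either, with knockouts up to -2.37 and P301S+ TREM2+/+ mice down to -2.21, but this gap lies within counting error. The highest knockout there was replicate 1, which had 0 Itgax reads. At the 0.136 RPKM that 3 reads would give, it would lie above the lowest P301S+ TREM2+/+ mouse. The other 7 members overlapped on this scale. Cst7 reached 0.40 in knockouts and went down to -0.59 in P301S+ TREM2+/+ mice, Lyz2 reached 0.64 in knockouts and went down to 0.31 in P301S+ TREM2+/+ mice, and Axl reached -0.15 in knockouts and went down to -0.21 in P301S+ TREM2+/+ mice. Gpnmb, which had separated narrowly in RPKM, reached -2.11 in knockouts and went down to -2.31 in P301S+ TREM2+/+ mice. Its levels there were 0.176 to 0.863 RPKM, where adding 1 before the log2 compresses differences in the gene. The quantity then largely follows the reference with its sign reversed, so this overlap does not show what part the reference had. The same limit applies to Itgax and to low values of Clec7a. Cd9 averaged 1.81 ± 0.24 in knockouts against 0.99 ± 1.10 in P301S+ TREM2+/+ mice. What part the amount of microglial RNA had in the members' differences was not tested beyond these values.

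**Figure D4:**
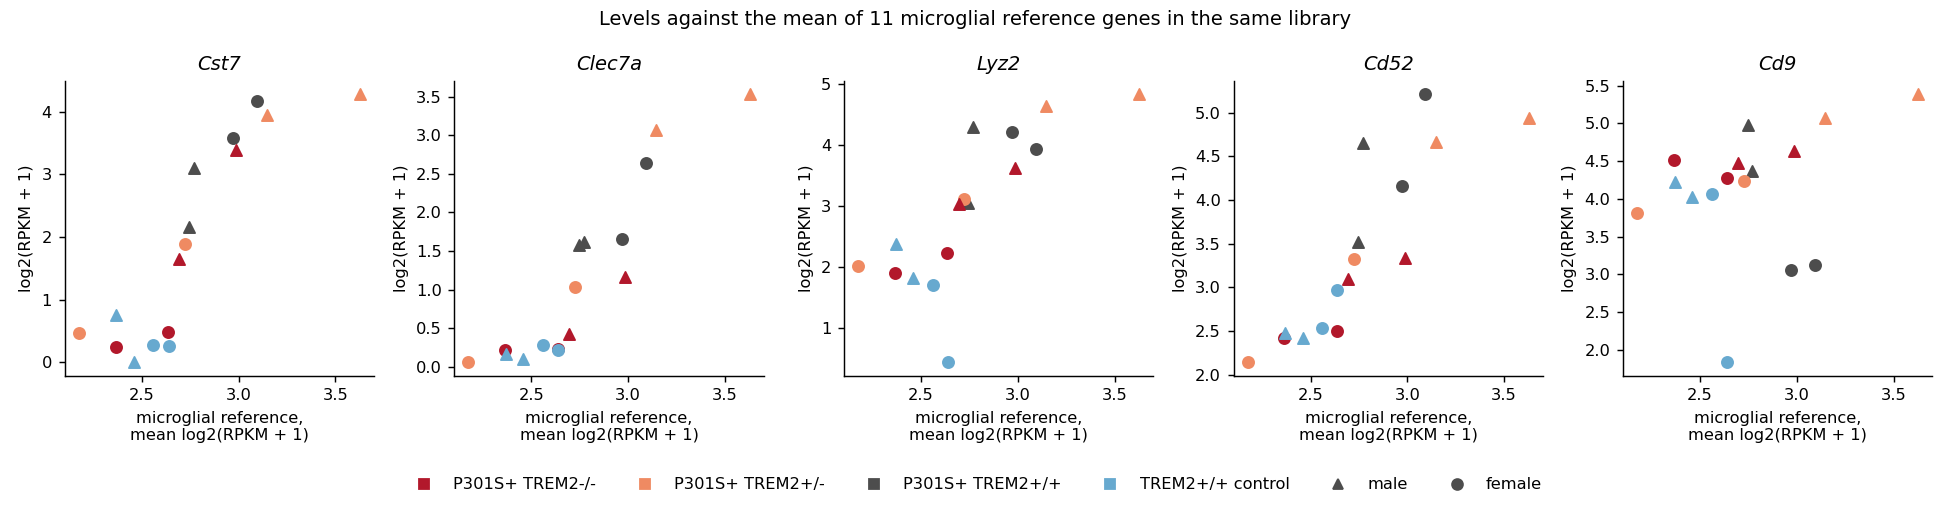
Log2(RPKM + 1) of 5 genes against the mean log2(RPKM + 1) of 11 microglial reference genes in the same library, for all 16 libraries, coloured by genotype with sex by symbol. Cst7, Clec7a, Lyz2 and Cd52 run upward with the reference, and the P301S+ TREM2+/+ libraries of Cd52 lie above the knockouts, while the P301S+ TREM2+/+ females are low for Cd9.

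Across the 16 libraries Cst7, Clec7a, Lyz2 and Cd52 each correlated with the mean of the other tested members at Pearson's r of 0.92, 0.93, 0.92 and 0.88, as a description of libraries that share genotype and depth. Spp1 (0.62), Lpl (0.53), Cd9 (0.32) and Axl (0.17) followed less closely, and Axl reached 0.81 without control replicate 3. By library, heterozygote replicate 4 was among the 4 highest for 9 members and heterozygote replicate 3 for 8, P301S+ TREM2+/+ replicate 1 for 7, and knockout replicate 1 was among the 4 lowest for 9. The genes outside the list most like the members' mean were the complement component C4b (r = 0.94), Tyrobp (0.94), the complement receptor C3ar1 (0.94), the myeloid transcription factor Irf8 (0.93), the chemokine Ccl4 (0.93), Tmem106a (0.93), the lipid phosphatase Ppap2b (0.92) and the astrocyte protease inhibitor Serpina3n (0.92). The median over all genes was 0.15. Trem2 was at 0.50, rank 1564. Without control replicate 3 the 8 nearest were C4b, Ntsr2, C3ar1, Tmem106a, Tyrobp, Pdpn, Ctss and Kcne1l.

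Of 30 other disease-associated microglia genes listed, 24 were tested, and none passed limma's test. In complete loss 4 were lower and 1 higher at an unadjusted p under 0.05 (537 and 653 of all 12015 genes tested), with a median log2 difference of -0.26. The 4 with the smallest p there were Csf1, a survival factor for microglia, at 6.31 ± 0.610 RPKM in knockouts against 3.81 ± 3.15 in P301S+ TREM2+/+ mice, the cathepsin Ctsz at 15.7 ± 3.70 against 32.5 ± 10.3, the lipid carrier Apoe at 563 ± 154 against 968 ± 186, and Tyrobp at 42.1 ± 22.1 against 83.5 ± 27.4 RPKM (SD, n = 4 each). In the P301S effect 10 were higher and 1 lower at that level (1096 and 561 of all 12015 genes), with a median of 0.46, led by the lysosomal enzyme Gusb (1.05), Ctsz (1.43), Tyrobp (1.65) and Ccl4 (1.73, limma adjusted p from 0.262 to 0.265).

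All 12 homeostatic microglia genes, which mark the resting state, were tested, with medians of -0.16 in complete loss and 0.22 in the P301S effect, and none passed limma's test. The receptor Gpr34 averaged 6.14 ± 1.28 RPKM in knockouts against 3.80 ± 0.933 RPKM in P301S+ TREM2+/+ mice, and Selplg 16.8 ± 3.82 RPKM in knockouts against 13.2 ± 4.01 RPKM in P301S+ TREM2+/+ mice (n = 4 each, SD). Tmem119 averaged 10.6 ± 3.57 RPKM in knockouts against 15.3 ± 3.92 RPKM in P301S+ TREM2+/+ mice, and Olfml3 2.20 ± 1.85 RPKM in knockouts against 3.43 ± 0.510 RPKM in P301S+ TREM2+/+ mice. In the P301S effect Tmem119 was at 0.77, P2ry12 at 0.61, Olfml3 at 0.57 and Siglech at 0.37.

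Markers of other cells that express these genes were followed in the same libraries. Border-associated macrophage genes (8 genes) summed to 7.02 to 9.13 RPKM in knockouts, 5.82 to 21.9 in heterozygotes, 8.21 to 17.6 in P301S+ TREM2+/+ mice and 6.31 to 16.1 in controls. Monocyte and neutrophil genes (8 genes) summed to 1.35 to 12.4 RPKM in knockouts, 2.18 to 9.44 in heterozygotes, 1.56 to 11.9 in P301S+ TREM2+/+ mice and 1.60 to 15.8 in controls. Chil3 was at 0 in 14 libraries and Ccr2 in 8, while S100a8 (mean 2.34 RPKM) was above 0 in all 16 and S100a9 (mean 2.38 RPKM) was at 0 in 2. Lymphocyte genes (9 found of 10) summed to at most 4.40 RPKM in any library, with Ms4a1 at 0 in all 16 and Cd4 (mean 1.84 RPKM) above 0 in all 16. Oligodendrocyte genes (8 genes), a source of Cd9, summed to 817 to 1197 RPKM in knockouts, 787 to 950 in heterozygotes, 685 to 955 in P301S+ TREM2+/+ mice and 545 to 708 in controls. Choroid plexus genes (8 genes) summed to 201 to 1154 RPKM in knockouts, 152 to 733 in heterozygotes, 295 to 2023 in P301S+ TREM2+/+ mice and 189 to 631 in controls. Astrocyte genes (8 genes), a source of Axl, summed to 1557 to 2185 RPKM in knockouts, 1676 to 2230 in heterozygotes, 1659 to 2410 in P301S+ TREM2+/+ mice and 1629 to 2320 in controls. Cortical excitatory neuron genes (8 genes) summed to 2645 to 4923 RPKM in knockouts, 1549 to 4988 in heterozygotes, 2126 to 3831 in P301S+ TREM2+/+ mice and 3314 to 9570 in controls. In the P301S effect their median log2 difference was -0.54, with 6 of 8 negative and 3 lower at an unadjusted p under 0.05 (561 of all 12015 genes). Striatum genes (7 found of 8) had a median of 0.94 in the P301S effect, with 5 of 6 tested positive, and -0.68 in partial loss, with 6 of 6 negative. Meningeal and fibroblast genes had a median of -0.65 in complete against partial loss, with 6 of 6 tested negative and 3 lower at that level (178 of all 12015 genes). Choroid plexus genes had medians of 0.88 in the P301S effect and -0.73 in complete loss, with 7 and 1 of 7 tested positive. No gene of these lists passed limma's test, and the part of these cells in the members' values was not tested.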

How the data were processed

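Cortical RNA of 16 libraries (4 genotypes of 4) was measured by 3' mRNA sequencing with the QuantSeq kit, per the labels' protocols. STAR, HTSeq, edgeR, limma and the build mm10 are named in the submitters' processing notes, with versions and roles not given in the sources used here. The deposited values, made by the authors, are RPKM per gene; the unit was read from the values, since each gene's values are whole multiples of a step that gives whole reads for 100.0% of genes (tolerance 1e-05 reads or a relative 3e-07) and whole gene lengths. RPKM divides by gene length, which suits 3' reads poorly, so levels were compared within a gene. Of the columns of per-sample values, 0 were left unused. 1 line per file names no gene and was left out. Depth was 2.55 to 14.47 M reads (M, 1000000), and counting error is large for genes of few reads. No replicates agreed within sampling noise (lowest chi-square per gene 6.87).

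Genes averaging at least 1 RPKM (12015) were tested on log2(RPKM + 1) with limma 3.58.1 in R 4.3.3, with a mean trend, 4 genotypes and sex as terms (11 residual degrees of freedom) and Benjamini-Hochberg adjustment over all genes at 0.05, for 7 comparisons. Sex differences came from a genotype-by-sex fit (8 residual degrees of freedom). Itgax and Gpnmb, below the filter, were given two-sided exact permutation tests over libraries, whose smallest p is 0.0286. Tables were handled with Python 3.11.15, pandas 2.3.3 and numpy 2.4.6. All 10 members were named, and from the other disease-associated and the homeostatic microglia lists the 4 genes with the smallest p in the comparison. Lists of other cells were given by sums and medians, with a few markers named by whether libraries listed them at 0. Outside the members, the 8 genes most like the members' mean were named. The members and lists were chosen with earlier results of these data known. Alternatives were the pseudocount, the filter, the samples fitted, the sex term, scaling, limma-voom on recovered reads, array weights, a microglial covariate and left-out libraries.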

Additional observations from a re-analysis of the deposited data

Results flagged for a closer look

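Partial loss pointed in opposite directions in the sexes for 6 members, with each group's libraries on opposite sides. None of 12015 genes passed limma's test of this sex difference. Each value rests on 2 against 2 libraries, and the pattern was picked out in these same data. Male minus female, on the log2 scale, the difference was 4.17 for Cst7 (limma adjusted p = 0.537), 3.31 for Clec7a (0.462), 2.66 for Cd52 (0.537), 2.57 for Lyz2 (0.623) and 0.94 for Axl (0.83). For Itgax it was 2.18, and that difference was not tested. Complete against partial loss gave -1.05 for Cd9 (limma adjusted p = 1), with the sexes on opposite sides.

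Single libraries lay far from the other 3 of their group. They were Clec7a at 1.24 RPKM in knockout replicate 4 and 5.24 RPKM in P301S+ TREM2+/+ replicate 1, Trem2 at 3.75 RPKM in knockout replicate 4, and Itgax at 0.0335 RPKM in control replicate 1. That Itgax value is 1 read, against 8, 3 and 3 reads in the other controls, and lies below the 0.101 RPKM that 3 reads would give there, so a difference was not detectable at this depth. Control replicate 3 was such a library for Axl (15.8 RPKM), Gpnmb (1.31 RPKM) and Cd9 (2.56 RPKM). Of 44 sets of 4 values examined, chance alone marks about 1 in 20.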

How the results depend on the processing

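Of 687 member values under other settings, 647 kept direction and side of the threshold, as did 949 of 992 without 1 library and 96 of 96 sex differences. No tested member passed the threshold in the main fits, so keeping its side was nearly given in advance. A value that shrank strongly but kept its sign also counted as kept. These totals therefore do not measure how stable the sizes were. No paired analysis was possible because the labels number no replicates; the numbers used here follow sample order and pair nothing. The cause was not tested for any change below.

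Genes called in the P301S effect were 197 with array weights and 0 to 5 without 1 library. In complete loss they were 0 without a filter, with limma-voom and without the 3 libraries that stand apart, 7 with only the genotypes compared, 690 with array weights and 0 to 14 without 1 library. Complete against partial loss gave 1 with only the genotypes compared, 5 with array weights, 44 without the 3 libraries and 0 to 2 without 1. The midpoint gave 1 with array weights and 0 to 1 without 1 library. Heterozygotes against controls gave 1 with limma-voom, 131 with array weights, 5 without the 3 libraries and 0 to 3 without 1. Knockouts against controls gave 1 with limma-voom, 4 with array weights, 1 with the microglial covariate, 1 without the 3 libraries and 0 to 1 without 1.

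Array weights estimated in 7 other ways, chosen after seeing the data, gave for complete loss and the P301S effect 20 and 36 (gene by gene), 19 and 3 (the same, robust), 593 and 188 (REML, robust), 8 and 2 (gene by gene, no trend, robust or not), 616 and 59 (REML, no trend) and 572 and 58 (the same, robust).

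Directions turned as follows. Without the 3 libraries, partial loss gave 0.98 for Cst7, 0.27 for Axl, 0.67 for Lyz2 and 0.20 for Cd52, the midpoint 0.0253 for Lpl, heterozygotes against controls 0.15 for Gpnmb and 0.25 for Trem2, and knockouts against controls 0.0286 for Axl and 0.0425 for Gpnmb. With the covariate, the midpoint gave -0.0925 for Cst7 and -0.11 for Cd52, partial loss -0.0061 for Clec7a, the P301S effect -0.18 for Axl, complete loss 0.0267 for Spp1, heterozygotes against controls -0.28 for Axl, and knockouts against controls -0.0566 for Clec7a and -0.0832 for Cd52. With array weights, Clec7a gave -0.19 in partial loss, Lpl 0.0347 at the midpoint and -0.0374 in knockouts against controls, Cd9 -0.25 in the P301S effect, and Trem2 0.0586 in heterozygotes against controls. Clec7a in partial loss was -0.52 and -0.11 at pseudocounts of 0.1 and 0.5 and -0.10 with limma-voom. Itgax in knockouts against controls was -0.0506 at a pseudocount of 0.1, and Axl in heterozygotes against controls -0.0024 with median-ratio scaling.

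Without 1 library, partial loss ranged from -1.18 to 0.0081 for Cst7, -0.42 to 0.60 for Clec7a, -0.23 to 0.0817 for Axl and -0.71 to 0.18 for Lyz2. The midpoint ranged from -0.11 to 0.91 for Cst7 and -0.18 to 0.66 for Cd52. Complete against partial loss ranged from -0.28 to 0.0921 for Lpl and -0.35 to 0.0359 for Cd9, complete loss from -0.35 to 0.20 for Spp1, and the P301S effect from -0.0137 to 0.60 for Axl and -0.0877 to 0.72 for Cd9. Heterozygotes against controls ranged from -0.10 to 0.52 for Axl, -0.49 to 0.29 for Trem2 and -0.19 to 0.15 for Gpnmb, and knockouts against controls from -0.042 to 0.10 for Itgax and -0.29 to 0.0425 for Gpnmb.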
